A study of Mus musculus with 8 samples.

Results

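The genes described here are 35 genes of the unfolded protein response and the integrated stress response, read in macrophages of mouse pancreatic islets. They were taken from the deposited count table by an exact match of its symbol column to a list of 35 symbols, and all 35 were found among the 48440 genes of the table. The cells were sorted from islets as CD11b+ and F4/80+ cells of male wild-type C57BL/6J mice, 16 weeks old. One group of 4 libraries came from mice on chow and the other group of 4 from mice on a high-fat diet (HFD, 45% fat), each kept on it for 8 weeks. Every library holds RNA pooled from 2 mice, so each value is a mean over a pool and the spread between animals within a pool is not seen. Levels are given as CPM, counts scaled to a common library size by the TMM method. The cDNA was amplified from a very small amount of RNA and carries no molecular identifiers here, so counts are not independent molecules.

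The unfolded protein response adjusts the folding capacity of the endoplasmic reticulum (ER) to its load. Its sensors in the ER membrane are IRE1 (encoded by Ern1), which splices the Xbp1 messenger, ATF6, which is cut in the Golgi to release a transcription factor, and PERK (encoded by Eif2ak3), which phosphorylates eIF2 alpha (encoded by Eif2s1). Phosphorylated eIF2 alpha lowers general translation and raises translation of Atf4, and this arm, shared with other eIF2 kinases, is the integrated stress response. Macrophages make secreted and lysosomal proteins, and in them these pathways also bear on cytokine production and lipid handling. Gene counts show neither Xbp1 splicing, nor ATF6 cleavage, nor eIF2 alpha phosphorylation, nor Atf4 translation.

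Chaperone genes of this pathway are known for a promoter sequence, the ER stress element, at which ATF6 and NF-Y bind. It is shown here to describe the genes. The match by symbol did not use it, but the list holds chaperone genes known for it. Its share among them is therefore no independent support for the choice of members. The letters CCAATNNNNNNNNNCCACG were searched on both strands of RefSeq promoter windows of 300 bases (250 before to 50 after each start, GRCm38.p6). Windows were held for 31 of the 35 genes, so Atf6, Hyou1, Manf and Derl1 were not searched. The element was present in 8 of these 31 genes (25.8%) and in 37 of all 27025 genes with a window (0.137%). It contains a CCAAT box by construction, which alone was found in 41.1% of all genes. A shorter form, ATTGGNCCACG, was found in 2 of the 31 genes and in 12 of all genes (0.044%). The UPR element TGACGTGG was in the windows of 0 of the 31 genes and in 0.714% of all genes. The matches of the first 2 kinds follow on the strand of the motif, with its fixed letters in capitals and 5 flanking bases on either side.
Hspa5, chr2:34772020-34772048: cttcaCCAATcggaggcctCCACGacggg
Hsp90b1, upstream match, chr10:86705633-86705661: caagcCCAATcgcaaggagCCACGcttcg
Hsp90b1, downstream match, chr10:86705528-86705556: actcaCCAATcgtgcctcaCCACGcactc
Calr, chr8:84847070-84847098: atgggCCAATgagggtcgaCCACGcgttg
Canx, chr11:50325795-50325823: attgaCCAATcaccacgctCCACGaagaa
Pdia6, chr12:17266486-17266514: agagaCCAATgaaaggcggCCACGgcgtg
Dnajc3, chr14:118937822-118937850: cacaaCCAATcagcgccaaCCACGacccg
Creld2, chr15:88819515-88819543: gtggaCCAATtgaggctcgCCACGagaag
Syvn1, chr19:6046527-6046555: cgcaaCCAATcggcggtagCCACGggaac
Herpud1, shorter form, chr8:94386372-94386392: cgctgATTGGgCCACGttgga
Dnajb11, shorter form, chr16:22857847-22857867: cggcgATTGGcCCACGcctgg

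The match of Hspa5 ran from 65 to 47 bases before the start of the gene in RefSeq. The shorter form in Herpud1 lay 52 to 42 bases before the start and that in Dnajb11 lay 8 to 18 bases after it. In Calr, in Creld2 and in the downstream match of Hsp90b1 the element was on the strand opposite to the gene. For the ATF4 arm, TGATGNAA, the core of the element bound by ATF4 with C/EBP proteins, was present in 5 of the 31 genes (Asns, Chac1, Herpud1, Slc7a11 and Trib3) and in 4.51% of all genes. The match of Asns was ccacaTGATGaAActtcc (chr6:7693220-7693237), that of Chac1 aggagTGATGcAAcggca (chr2:119351044-119351061), and the match of Slc7a11 farther from the start gtggcTGATGcAAacctg (chr3:50443667-50443684). These matches describe the letters and say nothing of binding in these cells.

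Levels of the 35 genes ran from 373 CPM per kb for Hsp90b1 to 0 for Chac1. Counts divided by the length of merged exons (GENCODE M21) give CPM per kb, which was used to order the genes. The merged length includes exons of every annotated transcript, and which transcripts were present was not checked, so the order is approximate. The ER chaperone of the HSP90 family, Hsp90b1, stood first at 373 CPM per kb (mean of 8 libraries, range 321 to 413). Its range did not overlap that of the next gene, Hspa5, which encodes the ER HSP70 chaperone BiP, at 139 CPM per kb (range 85.4 to 189). The disulfide isomerase gene Pdia3 and the lectin chaperone gene Canx followed at 109 and 109 CPM per kb, with ranges that overlapped each other and that of Hspa5. Next came Calr, the calcium-binding lectin chaperone calreticulin, at 57.8 CPM per kb (range 36.7 to 79.8), whose range overlapped that of Pdia3 (55.3 to 143) but not that of Canx (84.2 to 128). From Calr down to the end of the order, each gene's range overlapped that of its neighbour.

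Of the sensors, Atf6 was the most abundant per length, at 48.7 CPM per kb, a level higher than those of 94.9% of all tested genes. Ern1 was at 9.45 and Eif2ak3 at 1.39 CPM per kb, and the range of Eif2ak3 (0.298 to 4.78) lay below that of Atf6 (38.3 to 56.4). The transcription factor genes Xbp1, Atf4 and Ddit3, the last encoding CHOP, were at 29.8, 14.6 and 7.45 CPM per kb, against a median of 5.38 CPM per kb over all 10129 tested genes. At the low end stood Atf5, Asns, Trib3 and Chac1, at 0.302, 0.232, 0.0763 and 0 CPM per kb. The 8 genes with an ER stress element had a median of 47.6 CPM per kb (range 2.16 to 373), and the other 23 genes with a promoter window a median of 10.1 CPM per kb (range 0 to 109). These 23 include Atf5, Asns, Trib3 and Chac1, so the sets differ in role as well as in the element.

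**Figure D1:**
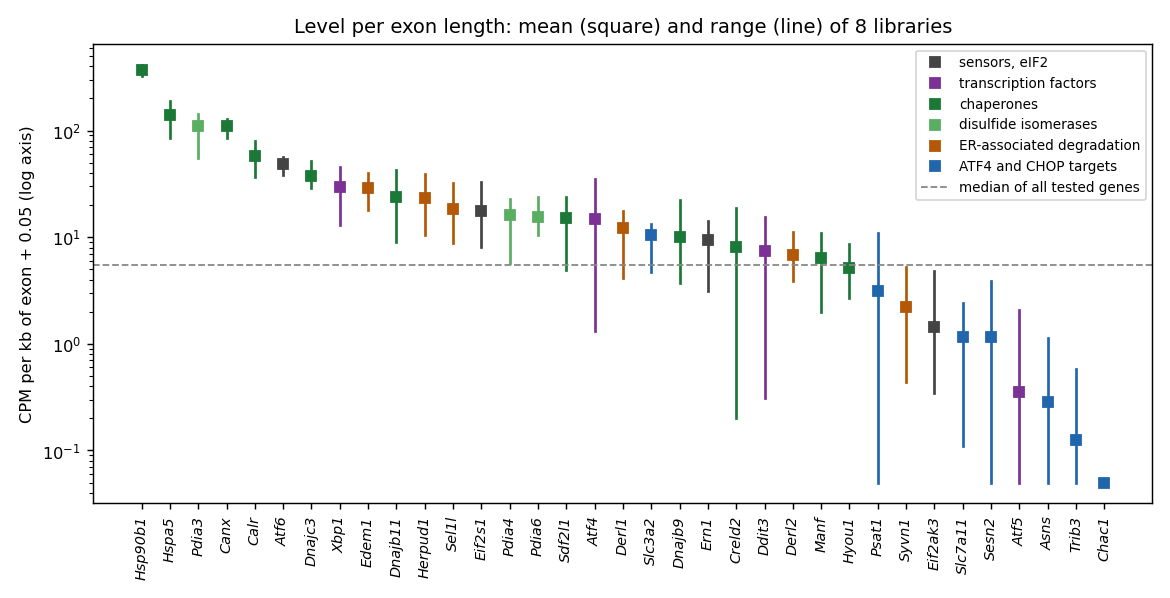
Level of each of the 35 genes per kb of exon, in CPM per kb plus 0.05 on a log axis, ordered by the mean over 8 libraries (square), with the lowest and highest library as a line and the median of all tested genes dashed. Hsp90b1 stands at 373 CPM per kb, and Atf5, Asns, Trib3 and Chac1 lie at the low end between 0.302 and 0.

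The comparison of HFD with chow asked whether transcripts of these pathways differed in islet macrophages after the diet. None of the genes passed the threshold. The filter on low counts kept 30 of the 35 genes, and edgeR's quasi-likelihood test called 0 of them higher and 0 lower in HFD at an adjusted p of 0.05 (0% and 0% of the 10129 tested genes were called higher and lower), with adjusted p from 0.823 to 0.997. DESeq2 and limma-voom also called 0 of the 30, with 2 of them at an unadjusted p under 0.05 in each. Over all 10129 tested genes, 758 were under that level with DESeq2 and 549 with limma-voom. At an unadjusted p of 0.05, 2 of the 30 were higher in HFD, Dnajb11 and Hspa5, and 0 lower, where the background over all tested genes was 2.61% higher and 2.74% lower. The HFD libraries were all above the chow libraries for 1 gene, Dnajb11, and all below for 0 genes, against 1.68% and 1.71% of all tested genes. The log2 fold change, HFD over chow, was above 0 for 19 of the 30 and below 0 for 11, where 48.6% of all tested genes were above 0. These counts were 15 and 15 without chow replicate 1. They were 13 and 17 with summed stellate and fibroblast transcripts, which are partly aligned with diet, as a covariate. The median log2 fold change was 0.12 over the 30 genes and -0.02 over all tested genes. Without chow replicate 1 the median over the members tested was -0.01. It was 0.28 without chow replicate 4, 0.03 without chow replicate 3, 0.04 without HFD replicate 5 and 0.20 without HFD replicate 8.

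**Figure D2:**
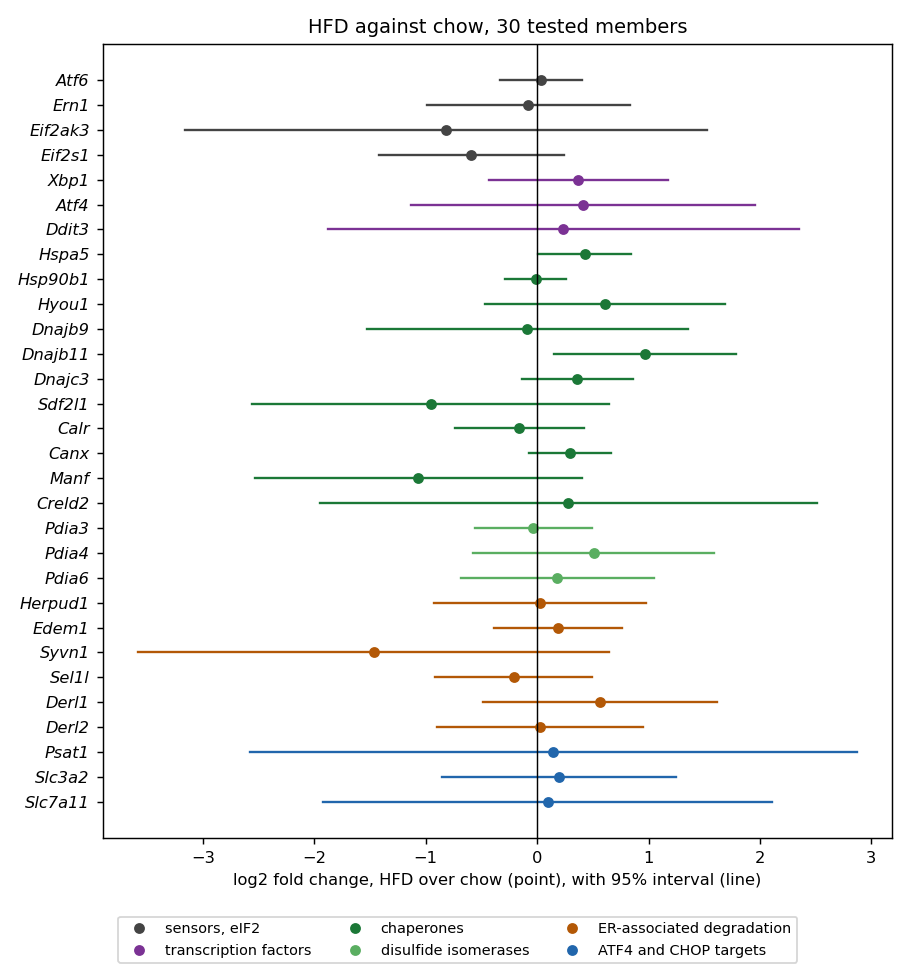
Log2 fold change (HFD over chow, point) with its 95% interval (line) for the 30 tested genes, coloured by role. The intervals of Dnajb11 (0.15 to 1.79) and Hspa5 (0.01 to 0.85) lie above 0, and those of the other 28 cross it.

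Hspa5 and its ER cochaperone Dnajb11, a J-domain protein that stimulates BiP, had the smallest p-values of the set. Dnajb11 (chr16, plus strand) was at 39.5, 68.7, 68.00 and 29.3 CPM in chow replicates 1 to 4 and at 139, 71.9, 88.7 and 104 CPM in HFD replicates 5 to 8. All HFD libraries were above all chow libraries, although HFD replicate 6 was close to chow replicates 2 and 3. The means were 51.4 ± 20.05 and 101 ± 28.7 CPM (SD, n = 4), and the fitted log2 fold change was 0.97 (SE 0.39, 95% interval 0.15 to 1.79). Its edgeR p was 0.0223 unadjusted and 0.823 adjusted. Hspa5 read 416, 361, 643 and 581 CPM across the chow libraries and 751, 612, 798 and 530.4 CPM across the HFD libraries. HFD replicates 5 and 7 were above every chow library, and HFD replicates 6 and 8 lay within the chow range. The means were 500.1 ± 133 and 673 ± 123 CPM (SD, n = 4), and the fitted log2 fold change was 0.43 (SE 0.20, 95% interval 0.01 to 0.85), at an edgeR p of 0.0456 unadjusted and 0.912 adjusted.

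Summed transcripts of other cell types differed between the same libraries. Summed acinar transcripts were at 1715 and 3570 CPM in chow replicates 3 and 4, and at 0.225 and 2.34 CPM in chow replicates 1 and 2. In HFD replicates 5 to 8 the acinar sums were 113, 57.8, 1771 and 38.2 CPM. Summed stellate and fibroblast transcripts ran from 24.0 to 133 CPM in chow. Of these 12 markers 1 had counts in every library. Rgs5 reached 128 CPM in chow and 97.0 CPM in HFD. Col1a1, Col6a1, Dcn, Lum, Pdgfra and Acta2 were at 0 in every chow library. For the stellate and fibroblast sum, HFD replicates 5, 6 and 7 held 463, 303 and 278 CPM and HFD replicate 8 held 106 CPM. With the acinar sum as a covariate the log2 fold change of Hspa5 was 0.38, with the pan-endocrine sum it was 0.48, and with the stellate and fibroblast sum it was 0.01. The respective values of Dnajb11 were 0.99, 0.92 and 0.64. HFD replicate 8 was the only HFD library whose stellate and fibroblast sum lay within the chow range. That covariate is thus partly aligned with diet, and the fit cannot tell them apart. In the same fit the log2 fold change was 6.64 for Psat1 and -2.985 for Eif2ak3, against 0.145 and -0.82 with diet as the only term. In these bulk samples, fewer cells of a type and less RNA per cell cannot be told apart.

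The other chaperones had log2 fold changes on both sides of 0, none past the threshold. Hsp90b1 read 1444, 1360.2, 1607 and 1627 CPM across the chow libraries and 1586, 1435, 1664 and 1294 CPM across the HFD libraries, and its coefficient of variation within a diet, 9.76% as a mean of both diets, was the lowest of the tested genes of the set. Its log2 fold change was -0.01 (SE 0.13, 95% interval -0.29 to 0.26). Its deposited counts were not whole numbers in any of the 8 libraries. Its exons overlap those of 1810014B01Rik on the opposite strand and those of Gm15344 and Gm25745 on the same strand. Canx, the membrane-bound lectin chaperone calnexin, averaged 461 ± 96.5 CPM on chow and 564 ± 21.4 CPM on HFD, and its HFD libraries lay close together between 541 and 592 CPM, all below chow replicate 3 at 601 CPM. Dnajc3, which inhibits PERK and assists BiP, averaged 169 ± 19.6 CPM on chow and 216 ± 42.8 CPM on HFD, with 3 of 4 HFD libraries above every chow library and a log2 fold change of 0.36 (SE 0.24, 95% interval -0.14 to 0.86). Calr read 106, 223, 229.9 and 143 CPM across the chow libraries and 149, 154, 156 and 169 CPM across the HFD libraries. The HFD libraries thus sat in the middle of a wider chow range, and the log2 fold change was -0.16 (SE 0.28, 95% interval -0.74 to 0.42).

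Hyou1, an HSP110-type chaperone and nucleotide exchange factor of BiP, read 40.7, 19.05, 32.97 and 24.3 CPM across the chow libraries and 61.97, 44.8, 23.2 and 48.2 CPM across the HFD libraries. HFD replicates 5, 6 and 8 were above every chow library and HFD replicate 7 lay within the chow range, giving a log2 fold change of 0.61 (SE 0.52, 95% interval -0.47 to 1.69). Dnajb9, a J-domain protein that holds IRE1 inactive together with BiP, read 9.44, 19.05, 20.3 and 56.9 CPM across the chow libraries and 42.3, 10.1, 27.4 and 19.5 CPM across the HFD libraries, with full overlap of the groups and a log2 fold change of -0.09 (SE 0.69, 95% interval -1.53 to 1.35).

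Manf and Sdf2l1 had the lowest log2 fold changes among the chaperones and cochaperones. Manf, an ER-resident factor that can be secreted and binds BiP, read 22.5, 37.2, 38.6 and 23.1 CPM across the chow libraries and 9.73, 6.77, 32.7 and 8.84 CPM across the HFD libraries. HFD replicates 5, 6 and 8 were below every chow library and HFD replicate 7 was within the chow range. The log2 fold change was -1.06 (SE 0.70, 95% interval -2.53 to 0.40), with an edgeR adjusted p of 0.987. Without HFD replicate 7 it was -1.84 with an edgeR adjusted p of 0.997. Exons of Manf overlap those of Dcaf1 on the opposite strand and of Rbm15b on the same strand, so some of its reads cannot be assigned with certainty. Sdf2l1, a cochaperone in the BiP complex, read 23.1, 26.1, 26.3 and 13.2 CPM across the chow libraries and 5.36, 17.5, 16.4 and 6.43 CPM across the HFD libraries, with HFD replicates 5 and 8 below every chow library and a log2 fold change of -0.95 (SE 0.77, 95% interval -2.56 to 0.65). Creld2, an ER-resident factor released under stress, read 9.44, 13.4, 0.207 and 16.5 CPM across the chow libraries and 5.96, 5.38, 25.5 and 11.2 CPM across the HFD libraries. Its log2 fold change was 0.28 (SE 1.07, 95% interval -1.95 to 2.51), an interval that reaches past a 2-fold change either way.

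Among the disulfide isomerases, which form and rearrange disulfide bonds of client proteins, 2 of 3 had a log2 fold change above 0. Pdia4 read 54.6, 13.6, 31.7 and 27.4 CPM across the chow libraries and 49.3, 36.1, 54.4 and 41.2 CPM across the HFD libraries, where all 4 libraries lay below chow replicate 1. Its log2 fold change was 0.51 (SE 0.52, 95% interval -0.57 to 1.59). Pdia3 averaged 347 ± 48.99 CPM on chow and 339 ± 130.4 CPM on HFD, with HFD replicates 5 and 7 above and HFD replicate 8, at 174 CPM, below every chow library. Pdia6 averaged 54.3 ± 16.1 CPM on chow and 61.6 ± 19.2 CPM on HFD, a log2 fold change of 0.18.

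**Figure D3:**
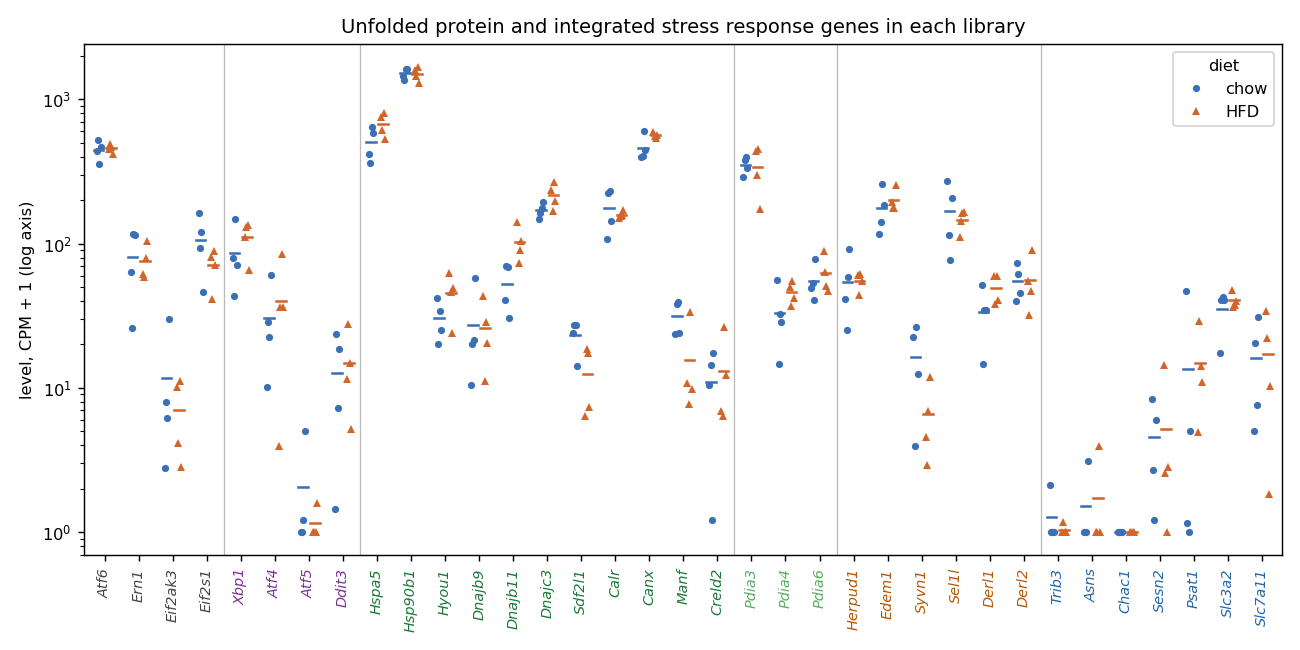
Level of each of the 35 genes in every library, as CPM plus 1 on a log axis, with chow libraries as circles, HFD libraries as triangles and the mean of each diet as a bar; vertical lines separate the roles. The diets overlap for every gene except Dnajb11, whose chow libraries reach 68.7 CPM and whose HFD libraries start at 71.9 CPM.

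None of the sensor genes, nor Eif2s1, passed the threshold. Atf6 read 434, 520.5, 354 and 468 CPM across the chow libraries and 449, 488, 463 and 419 CPM across the HFD libraries, with all HFD libraries within the chow range and a log2 fold change of 0.03 (SE 0.18, 95% interval -0.33 to 0.40). Ern1 read 62.7, 24.98, 115 and 114 CPM across the chow libraries and 60.98, 57.5, 78.8 and 103 CPM across the HFD libraries, again within the chow range, and the fitted log2 fold change was -0.08 (SE 0.44, 95% interval -0.99 to 0.83). Eif2ak3 was scarce, reading 1.80, 7.03, 5.18 and 28.8 CPM across the chow libraries and 9.14, 3.13, 10.1 and 1.81 CPM across the HFD libraries. Chow replicate 4 stood above all other libraries, and the log2 fold change was -0.82 (SE 1.12, 95% interval -3.16 to 1.52). Without that library it was 0.36. Exons of Eif2ak3 share 485 bases with those of Gm43292 on the opposite strand. Over the 8 libraries Gm43292 had 130 counts and Eif2ak3 321. Eif2s1 averaged 105 ± 48.8 CPM on chow and 69.6 ± 20.96 CPM on HFD, and the fitted log2 fold change was -0.59 (SE 0.40, 95% interval -1.42 to 0.24).

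Of the 4 transcription factor genes 3 were tested, each with a log2 fold change above 0 and an interval that crossed 0. Xbp1 read 78.2, 42.5, 147 and 70.3 CPM across the chow libraries and 111, 128, 133 and 64.5 CPM across the HFD libraries. Chow replicate 3 was the highest library and HFD replicate 8 was below chow replicates 1, 3 and 4. The log2 fold change was 0.37 (SE 0.38, 95% interval -0.43 to 1.17), and -0.21 with the stellate and fibroblast covariate. Atf4 read 9.21, 27.6, 21.4 and 59.9 CPM across the chow libraries and 2.98, 35.6, 83.5 and 35.1 CPM across the HFD libraries, so the HFD group held both the lowest and the highest library, and the log2 fold change was 0.41 (SE 0.74, 95% interval -1.14 to 1.96). Without HFD replicate 7 it turned to -0.27. Ddit3 read 0.449, 22.5, 6.22 and 17.7 CPM across the chow libraries and 10.5, 26.6, 13.9 and 4.22 CPM across the HFD libraries, and the fitted log2 fold change was 0.24 (SE 1.01, 95% interval -1.88 to 2.35). Exons of Ddit3 overlap those of Mars on the opposite strand, and strand use in counting is not given in the sources used here. Atf5, an ATF4-related factor, was not tested. It had 17 counts in chow replicate 4, 3 in HFD replicate 8, 1 in chow replicate 3 and 0 in the other libraries. Its exons overlap those of Nup62 and Il4i1 on the opposite strand, and Nup62 had 1252 counts over the 8 libraries.

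Of the 7 genes that ATF4 and CHOP are known to activate, 4 did not pass the filter on low counts and 3 did. Chac1, a glutathione-degrading enzyme gene, had a count of 0 in all 8 libraries, which allows up to 0.468 to 0.708 CPM per library (3 counts of the scaled total, counting error only). Trib3, a pseudokinase gene, had 5 counts in chow replicate 1, 1 count in HFD replicate 6 and 0 in the other libraries. Asns, the asparagine synthetase gene, had 9 counts in chow replicate 4 and 14 in HFD replicate 7, which are 2.12 and 2.95 CPM, and 0 in the other 6 libraries. Sesn2, a regulator of mTORC1, read 7.41, 1.72, 0.207 and 4.96 CPM across the chow libraries and 13.3, 1.56, 0 and 1.81 CPM across the HFD libraries and, like these 3 genes, was removed by the filter.

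The remaining genes of this arm concern amino acid supply. Slc3a2, the heavy chain of several amino acid transporters, read 16.4, 39.8, 41.7 and 39.4 CPM across the chow libraries and 46.9, 35.3, 36.2 and 39.2 CPM across the HFD libraries. Chow replicate 1 was low and the other 7 libraries lay between 35.2 and 46.9 CPM, and the log2 fold change was 0.20 (SE 0.50, 95% interval -0.85 to 1.25). Its partner in cystine uptake, Slc7a11, read 4.04, 19.5, 6.63 and 29.97 CPM across the chow libraries and 32.97, 21.2, 0.843 and 9.24 CPM across the HFD libraries, and the fitted log2 fold change was 0.10 (SE 0.96, 95% interval -1.92 to 2.11). Psat1, a serine synthesis enzyme gene, read 46.1, 0.156, 0 and 4.01 CPM across the chow libraries and 3.97, 28.1, 13.3 and 10.04 CPM across the HFD libraries. Chow replicate 1 held most of the chow counts, and without it the log2 fold change went from 0.14 to 3.34, with an edgeR adjusted p of 0.842.

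For ER-associated degradation, which returns misfolded proteins to the cytosol for the proteasome, 4 of 6 genes had a log2 fold change above 0 and 2 below. Herpud1, a membrane component of the degradation complex, read 39.99, 24.4, 57.6 and 91.3 CPM across the chow libraries and 59.2, 43.1, 60.9 and 54.03 CPM across the HFD libraries, with the HFD libraries inside the chow range and a log2 fold change of 0.03 (SE 0.46, 95% interval -0.93 to 0.98). Syvn1, the ubiquitin ligase HRD1, averaged 15.4 ± 10.2 CPM on chow and 5.56 ± 3.89 CPM on HFD and had the lowest log2 fold change of the set, -1.47 (SE 1.01, 95% interval -3.58 to 0.65). Its partner Sel1l averaged 167 ± 88.9 CPM on chow and 144 ± 24.9 CPM on HFD. The channel-forming Derl1 and its relative Derl2 had log2 fold changes of 0.56 and 0.03, and the mannosidase-like Edem1 one of 0.19. Exons of Syvn1 and Derl2 overlap those of Mrpl49 and Mis12 on the opposite strand.

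Genes with an ER stress element did not share a direction: 5 of the 8 had a log2 fold change above 0 and 3 below, with a median of 0.23 and a range from -1.47 to 0.43. The 18 tested genes with a window but without this element had a median of 0.06 and a range from -0.95 to 0.97, 11 above and 7 below 0. They include Dnajb11 and Herpud1, which have the shorter form. The shorter form was in Dnajb11 and Herpud1, whose log2 fold changes were 0.97 and 0.03.

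How far a difference could be seen depended on the level of the gene. For the 9 tested genes over 100 CPM, among them Hsp90b1, Hspa5 and Atf6, the coefficient of variation within a diet (mean of both diets) had a median of 20.0% and the SE of the log2 fold change was 0.13 to 0.34. For the 12 genes at 30 to 100 CPM the median was 35.4%, with SEs of 0.38 to 0.74. For the 9 genes under 30 CPM, among them Ddit3, Creld2 and Psat1, it was 74.7%, with SEs of 0.69 to 1.301. All tested genes at the same levels had medians of 23.5%, 42.0% and 78.5%. The 95% interval lay within a 2-fold change either way for 12 of the 30 genes and reached one for the other 18, so a 2-fold difference lies inside the interval of those 18 at this depth and number of libraries.

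**Figure D4:**
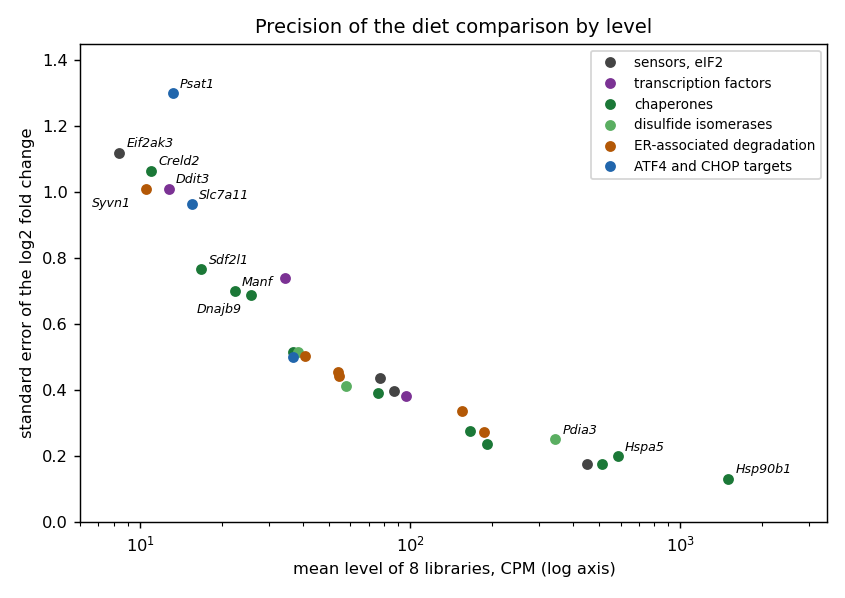
Standard error of the log2 fold change against the mean level of 8 libraries in CPM (log axis) for the 30 tested genes, coloured by role. The SE falls from 1.301 for Psat1 to 0.13 for Hsp90b1, being lower for most genes of higher level.

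Of 139 other genes of these pathways, listed by role, 114 were tested, and edgeR called 0 of them, with 1 higher and 2 lower at an unadjusted p of 0.05. Both are below the shares of all tested genes, 2.61% higher and 2.74% lower. DESeq2 and limma-voom called 0 as well. The median log2 fold change was -0.01, with 55 genes above and 59 below 0. The 6 with the smallest p, none past the threshold, were Mbtps2, Aars, Herpud2, Vcp, Mesd and Ssr3. Mbtps2, the site-2 protease that releases ATF6 from the membrane, read 9.88, 19.7, 29.9 and 27.1 CPM across the chow libraries and 81.6, 84.6, 28.2 and 125 CPM across the HFD libraries. HFD replicates 5, 6 and 8 stood above every chow library and HFD replicate 7 beside chow replicates 3 and 4, and the fitted log2 fold change was 1.88 (SE 0.52, 95% interval 0.79 to 2.97), at an edgeR adjusted p of 0.647. Aars, alanyl-tRNA synthetase, read 23.1, 20.5, 55.6 and 0.708 CPM across the chow libraries and 3.77, 2.26, 4.00 and 5.02 CPM across the HFD libraries, with chow replicate 4 below all HFD libraries and a log2 fold change of -2.72 (SE 1.02, 95% interval -4.86 to -0.58). Herpud2, a relative of Herpud1, read 78.2, 50.9, 62.4 and 102 CPM across the chow libraries and 40.7, 28.7, 30.98 and 34.7 CPM across the HFD libraries, with all HFD libraries below all chow libraries and a log2 fold change of -1.12 (SE 0.42, 95% interval -2.00 to -0.24). Vcp, the ATPase that pulls proteins out of the ER, Mesd, a chaperone of lipoprotein receptors, and Ssr3, a translocon subunit, had log2 fold changes of -0.69, 0.89 and 0.40. Pmaip1, which encodes the BH3-only protein NOXA and was chosen after its values were seen, was the only one of the 114 with all HFD libraries above all chow libraries, at 33.97, 43.9, 33.1 and 39.4 against 9.44, 27.01, 15.3 and 19.6 CPM. This 1 gene of 114 is no larger a share than the 1.68% of all tested genes.

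By group, other ER-associated degradation genes had 7 log2 fold changes above and 14 below 0 (median -0.41), and other ATF4 and CHOP targets 10 above and 19 below (median -0.14). Folding and glycoprotein quality control genes had 13 above and 10 below (median 0.20), translocon, signal peptidase and oligosaccharyltransferase genes 14 above and 10 below (median 0.07), and other sensor, eIF2 kinase, phosphatase and translation genes 11 above and 6 below (median 0.14).

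Library totals ran from 4288661 to 6391245 counts, and the 35 genes held 0.42% to 0.59% of them. Macrophage markers had counts in every library for 10 of 10 genes, with a sum of 3725 to 4593 CPM in chow and 3285 to 4047 CPM in HFD. Summed pan-endocrine transcripts were at 494 to 1870 CPM in chow and 1062 to 1882 CPM in HFD. Pcsk2 and G6pc2 of that list, picked after their values were seen, were higher in every HFD library than in any chow library, Pcsk2 at 25.0 to 53.8 against 1.24 to 15.3 CPM and G6pc2 at 12.2 to 38.7 against 0.622 to 5.90 CPM. The diets overlapped for all other genes of that list of 14. Among these, both ends of the range were lower in HFD for Scg2 and Chga, and higher for Gcg, Sst, Iapp and Chgb. The summed B and plasma cell markers were at 250 to 446 CPM in chow and 208 to 300 CPM in HFD, most of it Ighm (250 to 439 CPM in chow and 187 to 294 CPM in HFD), while Cd79a, Jchain, Mzb1 and Igkc were at 0 in all libraries. Of the 30 tested genes, chow replicates 1 and 2 held the lowest value for 8 and 7, and chow replicate 3 and HFD replicate 7 the highest for 8 and 7. Apart from the covariate values given, the part of these other transcripts in the levels of the 35 genes was not tested.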

How the data were processed

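RNA-seq counts per gene were read for 4 chow and 4 HFD libraries. FastQC, Trim Galore, STAR and the GRCm38 build are named in the submitters' processing notes; not given in the sources used here were the counting program, its annotation, versions and strand setting. The values the authors deposited are estimated counts per Ensembl gene, unscaled; 7.66% to 8.32% of values above 0 were not whole, and all were rounded. Genes were filtered (filterByExpr), scaled (TMM) and tested across all 10129 kept genes with edgeR's robust quasi-likelihood test (version 4.0.16; R 4.3.3), diet as the only term, two-sided, Benjamini-Hochberg adjustment over all tested genes. CPM uses the TMM-scaled totals. Levels per kb use merged exons of GENCODE M21. Alternatives were other scalings and filters, each library left out, covariates, limma-voom (limma 3.58.1) and DESeq2 (1.42.0). The edgeR step was tested on simulated data. Members and lists were chosen with earlier results of these data known. All genes of the set are named. Values in every library were given for a fixed panel and for any gene with an unadjusted p under 0.05 or non-overlapping diets; of other pathway genes, the 6 with the smallest p were named. Of the other pathway genes 4 were matched by GENCODE symbol, as were 3 cell type markers. Promoter windows came from RefSeq (GRCm38.p6).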

Additional observations from a re-analysis of the deposited data

Results flagged for a closer look

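Within a diet group of 4 libraries, 8 values of these genes lay far from the other 3, by a gap past Dixon's 95% critical value. There were 66 groups of genes with at least 10 counts in some library, of which about 5% would pass by chance if values were normally distributed. This was not checked for these counts, so the rate is a rough guide only. That rate does not apply to Asns in both diets and Atf5 in HFD, where the other 3 libraries were all at 0 and any count passes. Most concern genes of few counts. Psat1 was at 46.1 CPM in chow replicate 1, against 4.01 CPM or less in the other chow libraries. Slc3a2 was at 16.4 CPM in the same library, the lowest, against 39.4 to 41.7 CPM in the others. Manf was at 32.7 CPM in HFD replicate 7, against 9.73 CPM or less in the other HFD libraries. Sesn2 was at 13.3 CPM in HFD replicate 5, against 1.81 CPM or less. Asns was at 2.12 CPM in chow replicate 4 and at 2.95 CPM in HFD replicate 7, with 0 in the other libraries of each diet. Atf5 was at 4.01 CPM in chow replicate 4 and at 0.603 CPM in HFD replicate 8, the latter from 3 counts.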

How the results depend on the processing

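Each alternative run, those with DESeq2 and limma-voom included, called 0 of the members it tested and 0 of the other pathway genes. The members tested were 30 or 31 of the 35, and 34 with no filter. Over all genes the reported test called 0 (542 at an unadjusted p under 0.05), against 45 with no filter, 25 with DESeq2, 1 with limma-voom and 11 without HFD replicate 8. The median log2 fold change of the tested members ran from -0.008 to 0.276 with single libraries left out (reported value 0.12), was -0.142 with the stellate and fibroblast covariate, 0.184 with library totals and 0.079 with the pan-endocrine covariate; the cause was not tested. Of the 20 genes with values in every library that were tested, 7 kept their direction in all 19 alternatives: Hspa5, Hyou1, Dnajb11, Sdf2l1, Calr, Manf and Pdia4. For Hspa5 and Calr some of these values were close to 0. The log2 fold change of Hspa5 was 0.008 with the stellate and fibroblast covariate, and that of Calr was -0.005 without chow replicate 3.

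Other directions turned, all in genes that were not called. The stellate and fibroblast covariate is partly aligned with diet. With it, the log2 fold change was -0.21 for Xbp1, -2.21 for Ddit3, -0.26 for Herpud1, -0.36 for Slc3a2 and -1.46 for Slc7a11. With limma-voom it was 0.12 for Ern1, -0.05 for Atf4 and -0.72 for Slc7a11. With library totals it was 0.003 for Ern1 and 0.067 for Hsp90b1, with upper-quartile scaling 0.013 for Hsp90b1, and with the pan-endocrine covariate 0.018 for Hsp90b1 and -0.011 for Slc7a11. With single libraries left out it ran from -0.061 to 0.12 for Atf6, -0.377 to 0.163 for Ern1, -1.187 to 0.359 for Eif2ak3, -0.266 to 1.009 for Atf4, -0.298 to 0.767 for Ddit3, -0.071 to 0.048 for Hsp90b1, -0.471 to 0.596 for Dnajb9, -0.396 to 0.633 for Creld2, -0.215 to 0.408 for Herpud1, -0.47 to 3.336 for Psat1, -0.037 to 0.305 for Slc3a2 and -0.525 to 0.663 for Slc7a11. No paired analysis was possible because the diets share no replicate number (chow has 1 to 4, HFD has 5 to 8).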
